A study of Mus musculus with 24 samples.

Results

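The 10 genes described here encode the laminin chains and the linker proteins of the basement membrane in the mouse left ventricle. They were chosen by gene symbol from the 14912 genes of the deposited expression table. The laminin chains are Lama2, Lama4, Lama5, Lamb1, Lamb2 and Lamc1, and the linkers are the nidogens Nid1 and Nid2, perlecan (Hspg2) and agrin (Agrn). All 10 genes were in the table and all 10 passed the filter on low values. The samples were left ventricles of male wild-type C57BL/6J mice. The hypertensive-LVH group was infused over 7 days with angiotensin II (ANG II) from an osmotic pump under the skin, at a dose of 1500 ng/kg/min, and the control group received saline in the same way (n = 12 in each group, biological replicates by the methods of the study). The age of the mice was not given in the sources used here. ANG II infusion raises blood pressure and is a common model of left ventricular hypertrophy (LVH). Polyadenylated RNA of the whole ventricle was sequenced, so fewer cells of a type and less RNA per cell cannot be told apart. The question addressed by the comparison is which basement membrane genes differ between the hypertrophied and the control ventricle.

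A basement membrane is a thin sheet of matrix that surrounds each cardiomyocyte and lies under the endothelium of every vessel. Laminins are trimers of an alpha, a beta and a gamma chain that assemble into a network at the cell surface, where they bind integrins and dystroglycan. Nidogens bind the gamma chain of laminin and collagen IV, perlecan carries heparan sulfate chains and binds several components of the sheet, and agrin joins laminin to dystroglycan. In the heart the trimer with the Lama2 chain is known as the laminin of the cardiomyocyte, and the trimers with the Lama4 and Lama5 chains are the main laminins of vessels. Mutations of LAMA2 cause a congenital muscular dystrophy.

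The values are FPKM, in which fragment numbers are scaled for transcript length and for the mapped fragments of the library, so that levels can be compared between genes. The deposited values had been adjusted in 4 sets, each holding 3 samples of either group with the same numbers (samples 1 to 3, then 4 to 6, 7 to 9 and 10 to 12). Samples 4 to 6 stood apart: over the 14026 genes tested, the log2 fold change (hypertensive-LVH minus control) had a median of 0.175 within that set, against -0.007, -0.022 and 0.026 in the other sets. The main results and the counts of each list are therefore given with and without these samples. Summed over genes, the values of a sample lay between 460715 and 515185 in the hypertensive-LVH group and between 482319 and 567727 in the other group. The number of reads is not given with these values. None of the 10 genes had a negative value, which the adjustment had produced in 1201 other genes.

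Positions are from GENCODE vM21 (GRCm38), matched by symbol. Lama2 (chr10:26980036-27619758) and Lama4 (chr10:38965515-39110188) lie on chromosome 10, and Lama5 lies at chr2:180176373-180225859. The beta chain genes are Lamb1 (chr12:31265234-31329644) and Lamb2 (chr9:108479736-108490530), and the gamma chain gene Lamc1 lies at chr1:153218922-153332786. Nid1 (chr13:13437551-13512269) and Nid2 (chr14:19751265-19811787) lie on different chromosomes. Hspg2 (chr4:137468769-137570630) and Agrn (chr4:156165290-156197488) lie on the same chromosome. All 10 are protein-coding, and their principal transcripts have from 20 exons (Nid1) to 97 exons (Hspg2). Lama2, Nid1 and Nid2 have exons that overlap a gene on the opposite strand, and whether the counting used the strand is not given in the sources used here, so reads of such partners cannot be told apart from theirs.

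Upstream sequences are shown for the 3 genes on which the main contrast turns, which are Nid1 and Lamb1, both higher in the hypertensive-LVH group, and Lamb2, whose level hardly differed. They are from the RefSeq promoter table (GRCm38.p6), which held 7 of the 10 genes. Lama4, Lamc1 and Nid2 had no entry. Each run is on the plus strand, ends 1 base before the first annotated exon, and is written 5′ to 3′ with GC boxes (GGGCGG or its complement CCGCCC) in capitals. The windows are chr13:13437352-13437550 for Nid1, chr12:31265043-31265233 for Lamb1 and chr9:108479612-108479735 for Lamb2.
Nid1: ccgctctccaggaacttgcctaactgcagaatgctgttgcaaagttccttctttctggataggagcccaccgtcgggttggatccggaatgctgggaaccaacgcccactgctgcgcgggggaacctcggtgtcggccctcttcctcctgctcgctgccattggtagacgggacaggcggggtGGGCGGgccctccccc
Lamb1: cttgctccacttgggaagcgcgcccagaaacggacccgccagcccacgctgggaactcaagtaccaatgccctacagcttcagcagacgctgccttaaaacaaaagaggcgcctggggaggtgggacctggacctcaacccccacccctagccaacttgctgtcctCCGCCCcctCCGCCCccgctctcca
Lamb2: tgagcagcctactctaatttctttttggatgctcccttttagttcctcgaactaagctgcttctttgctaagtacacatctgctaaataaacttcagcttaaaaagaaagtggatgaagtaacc

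The runs of Nid1 (199 bases) and Lamb1 (191 bases) had a GC content of 63.8% and 63.9%. The shorter run of Lamb2 (124 bases) had 37.9%. Over the 250 bases before the RefSeq start, a GC box was found in 5 of the 7 genes (Lama5, Lamb1, Nid1, Hspg2 and Agrn), with 12 matches in Agrn, and in neither Lama2 nor Lamb2. The same 6 letters were found in 32.9% of 27025 promoter windows of that length. A CCAAT box (CCAAT or ATTGG) was found in Lamb1 and Nid1, against 34.5% of all windows. No TATA box (TATAAA or TTTATA, 13.0% of all windows) and no AP-1 site (TGANTCA, which is its own complement, 6.87% of all windows) was found in the 7 genes. These are matches of letters in a window and not sites of binding. For Nid1, Lamb1 and Lamb2 the 250 bases extend past the start of the first annotated exon, so they are not all upstream of it.

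In the control group the levels of the 10 genes ranged from 7.39 FPKM for Nid2 to 137.1 FPKM for Lamb2, all as means of 12 samples. Lamb2, the beta chain of the adult muscle and vessel basement membrane, had the highest level in each of the 12 control samples. Perlecan followed with 77.4 ± 7.68 FPKM (SD, n = 12), then Lamc1, the gamma chain shared by these laminins, with 65.9 ± 8.34 FPKM, and Nid1 with 43.3 ± 6.42 FPKM. Lamb1, Lama5, Lama4 and Lama2 lay next to each other with means of 27.0, 26.9, 24.2 and 22.0 FPKM, and no neighbouring pair of these 4 differed by more than the sum of their SDs. Agrin (12.5 ± 1.78 FPKM) and Nid2 (7.39 ± 2.04 FPKM) were the lowest. The gap between perlecan and Lamc1 (11.5 FPKM) was also smaller than the sum of their SDs, although perlecan was higher in 12 of 12 control samples.

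**Figure D1:**
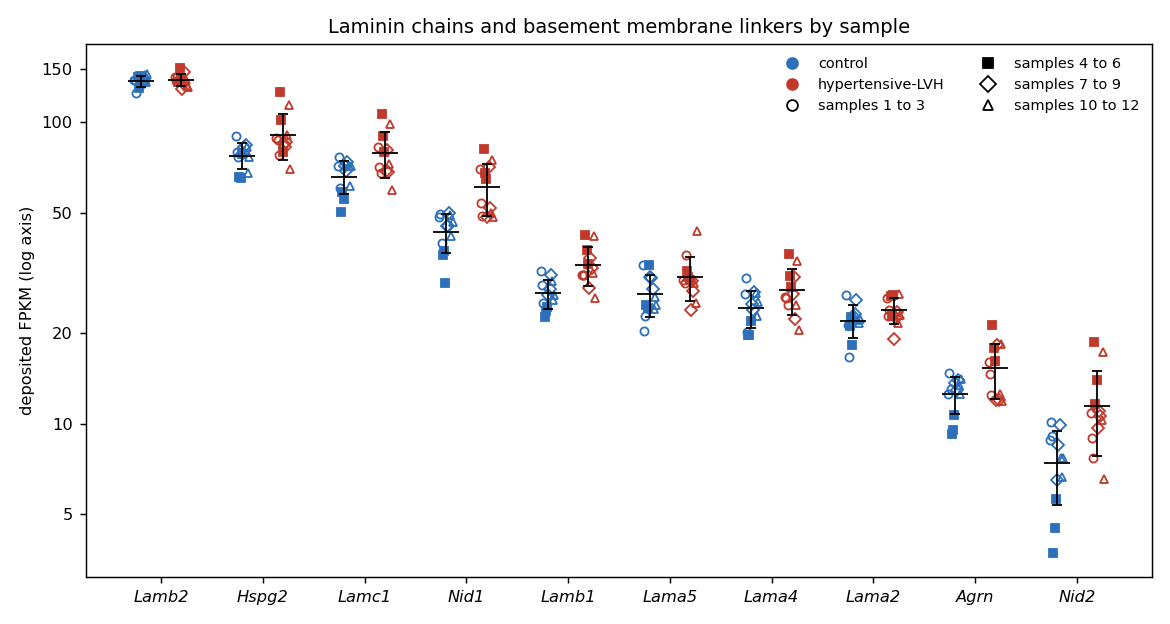
Deposited FPKM (log axis) of the 10 genes in the 12 control samples (blue) and 12 hypertensive-LVH samples (red), with symbols for the 4 sets of samples, filled squares for samples 4 to 6, and black bars for the mean and SD. The Lamb2 ranges of the groups overlap between 128.7 and 144.1 FPKM, while most Nid1 samples of the hypertensive-LVH group lie above the highest control sample.

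In the hypertensive-LVH group 6 of the 10 genes were higher and 0 were lower at an adjusted p under 0.05 (limma on log2(FPKM + 1), Benjamini-Hochberg adjustment over 14026 genes). They were both nidogens, perlecan, agrin, Lamb1 and Lamc1. Of all genes tested, 20.9% were called higher in this way, and 1769 of 14026 were called lower. The median log2 fold change of the 10 genes was 0.232, beside 0.055 over all genes tested. The 3 alpha chains and Lamb2 did not pass the threshold.

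The nidogens had the largest fold changes of the 10 genes. Nid1, the main nidogen, was between 29.4 and 49.9 FPKM (median 45.3) in the control group and between 48.4 and 81.3 FPKM (median 59.4) in the hypertensive-LVH group. Of the 12 hypertensive-LVH samples, 12 were above the control median and 8 were above the highest control sample. The log2 fold change was 0.48 ± 0.10 (SE), with an adjusted p of 0.000737 (limma).

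Nid2, the second nidogen, was between 3.73 and 10.1 FPKM (median 7.69) in the control group and between 6.56 and 18.6 FPKM (median 10.7) in the hypertensive-LVH group. The groups overlapped, with 8 of 12 hypertensive-LVH samples above the highest control sample. Its log2 fold change was 0.56 ± 0.15 (SE, adjusted p = 0.0069, limma). Nid2 was the only 1 of the 10 genes that met the criteria for a DEG, an adjusted p under 0.05 and an absolute log2 fold change above 0.5, which 4.52% of all genes met with a higher level. The lowest hypertensive-LVH value was that of sample 12, and the highest that of sample 4.

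Among the laminin chains, Lamb1 and Lamc1 were called. Lamb1 was between 22.6 and 32.0 FPKM (median 26.8) in the control group and between 26.0 and 42.1 FPKM (median 32.3) in the hypertensive-LVH group, with 11 of 12 samples above the control median. Its log2 fold change was 0.30 ± 0.07 (SE, adjusted p = 0.00255, limma). Lamc1, the chain that nidogen binds, was between 50.2 and 76.4 FPKM (median 70.2) in the control group and between 59.6 and 106.6 FPKM (median 76.4) in the hypertensive-LVH group. Its groups overlapped more, with 8 of 12 samples above the control median, and its log2 fold change was 0.25 ± 0.08 (SE, adjusted p = 0.0258, limma).

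The other beta chain, Lamb2, did not separate the groups. It was between 125.0 and 144.1 FPKM (median 137.9) in the control group and between 128.7 and 151.1 FPKM (median 137.3) in the hypertensive-LVH group. The log2 fold change was 0.0092, with a 95% confidence interval from -0.06 to 0.07 and an adjusted p of 0.837 (limma). Lamb2 thus had the highest level and the narrowest interval of the 10 genes. Its sign changed with the scaling, to -0.04 with median-ratio scaling.

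The heparan sulfate proteoglycans passed the threshold by a small margin. Perlecan was between 65.3 and 90.2 FPKM (median 78.8) in the control group and between 69.8 and 126.4 FPKM (median 86.7) in the hypertensive-LVH group. Its log2 fold change was 0.22 ± 0.08 (SE, adjusted p = 0.0338, limma). Agrin was between 9.24 and 14.7 FPKM (median 13.0) in the control group and between 11.9 and 21.2 FPKM (median 15.3) in the hypertensive-LVH group. Its log2 fold change was 0.25 ± 0.10 (SE, adjusted p = 0.0416, limma), but no more than 7 of the 12 hypertensive-LVH samples exceeded the control median. Neither call was kept with quantile normalization (adjusted p = 0.0672 for perlecan and 0.0515 for agrin, limma).

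The alpha chains set the identity of a laminin, and none of the 3 measured here was called. Lama4 was between 19.6 and 30.4 FPKM in the control group and between 20.4 and 36.5 FPKM in the hypertensive-LVH group, with a log2 fold change of 0.18 (95% confidence interval 0.01 to 0.36, adjusted p = 0.0963, limma). Lama5 was between 20.3 and 33.6 FPKM and between 23.8 and 43.7 FPKM in these groups, with a log2 fold change of 0.18 (0.00 to 0.36, adjusted p = 0.107). Lama2 was between 16.7 and 26.7 FPKM and between 19.0 and 26.8 FPKM, with a log2 fold change of 0.11 (-0.02 to 0.24, adjusted p = 0.185). For each of the 3 chains, 10 of 12 hypertensive-LVH samples were above the control median. Intervals of this width leave room for a difference of the size measured for Lamb1, except in the case of Lama2, whose upper bound was below it.

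**Figure D2:**
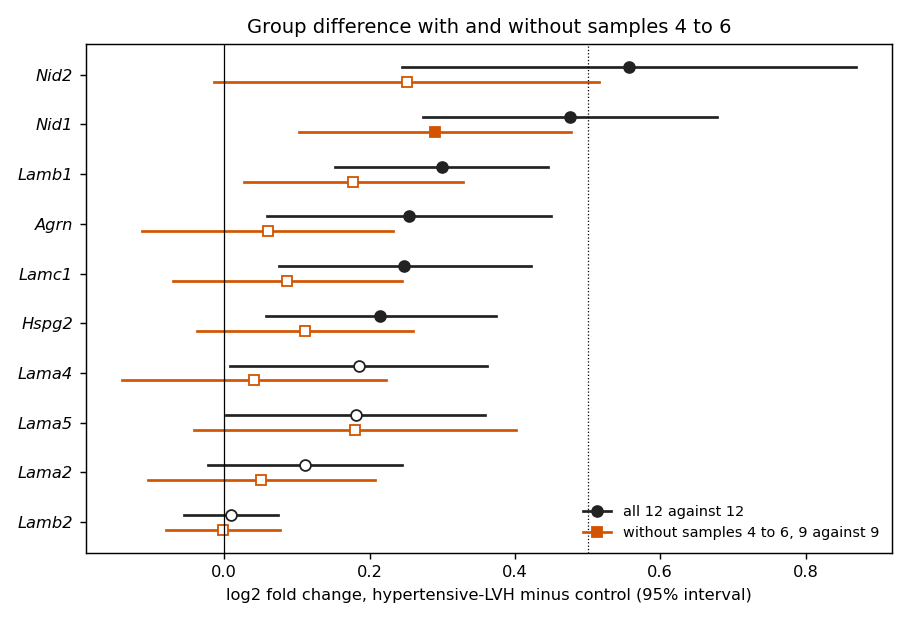
Log2 fold change of each gene, hypertensive-LVH minus control, with its 95% confidence interval, for all samples (black circles) and without samples 4 to 6 (orange squares), filled where the adjusted p was under 0.05. The dotted line marks a log2 fold change of 0.5. In the full comparison 6 circles are filled, and without samples 4 to 6 only the square of Nid1 is filled.

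Samples 4 to 6 carried much of these differences. Within that set, 8 of the 10 genes had all 3 hypertensive-LVH samples above all 3 control samples, which was so for 38.5% of all genes tested. In the other sets 0 of the 10 genes separated the groups in this way. The share of all genes in those sets is not given here, so it is open whether this count was unusual. The log2 fold changes within samples 4 to 6 were 1.47 for Nid2, 1.03 for Nid1, 0.84 for agrin, 0.73 for Lamc1, 0.66 for Lamb1, 0.61 for Lama4 and 0.53 for perlecan. The median over the 10 genes was 0.639 within samples 4 to 6 and 0.087, 0.036 and 0.196 within samples 1 to 3, 7 to 9 and 10 to 12. The direction was shared more widely than the size, since 6 of the 10 genes (Lama4, Lamb1, Lamc1, Nid1, perlecan and agrin) had a higher mean of log2(FPKM + 1) with ANG II in all 4 sets, as did 21.8% of all genes. For Lama4 in samples 1 to 3 this log2 difference was 0.01 and the mean FPKM was 25.7 with ANG II against 25.8 in the control group.

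When samples 4 to 6 were left out, only Nid1 remained past the threshold, with a log2 fold change of 0.29 (adjusted p = 0.027, limma, 9 against 9 samples). In that comparison 8.4% of all genes were called higher. Lamb1 then had a log2 fold change of 0.18 (adjusted p = 0.0889) and Nid2 of 0.25 (adjusted p = 0.172). For perlecan it was 0.11 (adjusted p = 0.288), for Lamc1 0.09 (adjusted p = 0.441) and for agrin 0.06 (adjusted p = 0.646). The log2 fold change of Lama5 was 0.18 both with and without these samples. The median over the 10 genes was 0.099 without them, beside 0.005 over all genes.

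**Figure D3:**
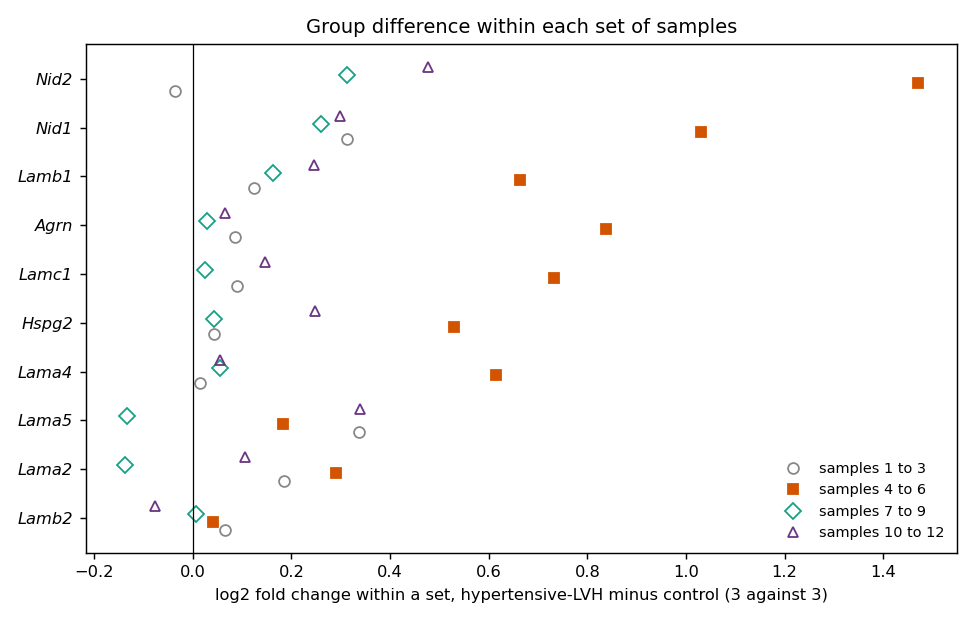
Log2 fold change of each gene within each of the 4 sets, hypertensive-LVH minus control (3 against 3 samples in a set), with filled orange squares for samples 4 to 6. For 7 genes the square lies at 0.53 or above, to the right of the other 3 sets, whereas for Lama5, Lama2 and Lamb2 the square lies at 0.29 or below.

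The dependence on the set was tested directly. A group by set interaction passed an adjusted p of 0.05 for 2 of the 10 genes, Nid2 (adjusted p = 0.0239) and agrin (adjusted p = 0.0455), beside 7.49% of all genes (limma F-test). When the group difference in samples 4 to 6 was set against that in the other sets, a comparison chosen after the data were seen, 6 genes passed, beside 16.4% of all genes with a larger difference in that set. The log2 fold change in samples 4 to 6 exceeded that of the other sets by 1.22 for Nid2, 0.78 for agrin, 0.74 for Nid1, 0.65 for Lamc1, 0.57 for Lama4 and 0.48 for Lamb1, with adjusted p from 0.00334 to 0.0275 (limma). For Lama5 the excess was 0.0014, with an adjusted p of 0.997.

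Because the adjustment had rescaled values within the sets, the differences before it were recovered from the spacing of the values, which was possible for all 10 genes. Over the 10 genes and 4 sets, 39 of 40 differences had the same sign before and after the adjustment. The exception was Lama2 in samples 7 to 9, with a difference of -2.20 FPKM after and 0.10 FPKM before the adjustment. The sizes agreed less well than the signs. For Lamc1 the difference was 4.39 FPKM after and 0.01 FPKM before in samples 1 to 3. In samples 7 to 9 it was 1.43 FPKM after and 10.9 FPKM before. In samples 1 to 3, perlecan had 2.42 FPKM after and 0.18 FPKM before, and Lama4 had -0.09 FPKM after and -1.75 FPKM before. Averaged over the sets, the recovered differences were 17.6 FPKM for Nid1, 15.6 FPKM for perlecan, 14.5 FPKM for Lamc1, 6.68 FPKM for Lamb1, 4.46 FPKM for Lama5 and 4.30 FPKM for Nid2. They were 3.39 FPKM for Lama4, 3.12 FPKM for agrin, 2.74 FPKM for Lama2 and 2.61 FPKM for Lamb2.

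An exact permutation test that exchanged labels only within sets (160000 relabelings, two-sided, Benjamini-Hochberg adjustment over 13310 genes) called 4 of the 10 genes higher, beside 18.0% of all genes. The called genes were Nid1 (exact adjusted p = 0.00429), Lamb1 (exact adjusted p = 0.00997), Lamc1 (exact adjusted p = 0.0281) and Nid2 (exact adjusted p = 0.0333). Perlecan (exact adjusted p = 0.0546), agrin (exact adjusted p = 0.0667) and Lama2 (exact adjusted p = 0.0521) did not pass. The same test on the deposited values called 3 of the 10 genes, without Lamc1 (exact adjusted p = 0.0572). Nid1 was, with samples 4 to 6 left out, the only 1 of the 10 genes that passed (mean difference 11.7 FPKM, exact adjusted p = 0.0456). The 18.0% belongs to the test on recovered values of all sets. Shares of all genes for the test on deposited values and for that without samples 4 to 6 are not given here.

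The composition of the laminin chains was then compared, using ratios within a sample. The ratios and shares are of deposited values, in which each gene had been adjusted on its own in each set. They were not repeated on recovered values. Lamb1 made up 16.5% ± 1.44 (SD, n = 12) of the summed FPKM of Lamb1 and Lamb2 in the control group and 19.5% ± 2.31 in the hypertensive-LVH group. The share was between 13.8% and 18.8% in the control samples and between 16.6% and 24.1% in the hypertensive-LVH samples, with 5 of 12 above the highest control sample. The log2 ratio of Lamb1 to Lamb2 differed by 0.29 between the groups (permutation test with 100000 resamples, two-sided, p = 0.00016, adjusted p = 0.00096 over 6 ratios). It was above the control median in 11 of 12 hypertensive-LVH samples, and with labels exchanged within sets the exact adjusted p was 0.00315. The difference was 0.18 without samples 4 to 6 (permutation p = 0.0109, adjusted p = 0.0656).

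**Figure D4:**
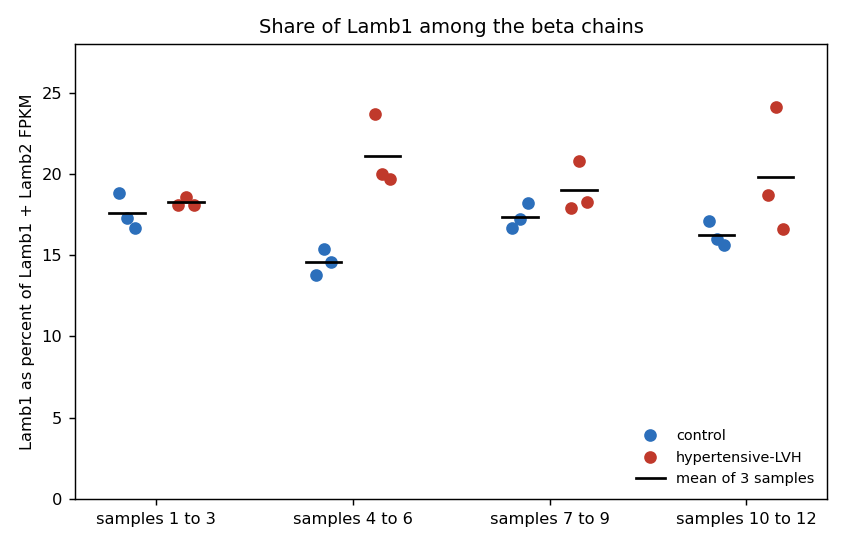
Share of Lamb1 in the summed FPKM of Lamb1 and Lamb2 (percent, axis from 0) by set of samples, for control (blue) and hypertensive-LVH samples (red), with the mean of 3 samples as a black line. In each set the hypertensive-LVH samples had the higher mean share, from 18.3% against 17.6% in samples 1 to 3 to 21.1% against 14.6% in samples 4 to 6.

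The other 5 ratios did not differ beyond the spread between samples. The alpha chains held nearly equal shares of their sum, with means of 30.1% for Lama2, 33.1% for Lama4 and 36.8% for Lama5 in the control group and 28.9%, 33.7% and 37.3% in the hypertensive-LVH group. The log2 ratio of Lama4 to Lama2 differed by 0.07 (permutation adjusted p = 0.663) and that of Lama5 to Lama4 by -0.0042 (permutation adjusted p = 0.977). Nid2 made up 14.4% ± 2.67 (SD, n = 12) of both nidogens in the control group and 15.6% ± 2.30 in the hypertensive-LVH group. The log2 ratio of Nid2 to Nid1 differed by 0.08 (permutation adjusted p = 0.663), so a difference between the fold changes of the nidogens was not detected. The ratio of perlecan to agrin differed by -0.04 (permutation adjusted p = 0.711) and that of Lamb1 to Lamc1 by 0.05 (permutation adjusted p = 0.574).

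Apart from the group difference, Lamc1 varied between individual ventricles together with some of its partners. The mean of each group and set was removed from log2(FPKM + 1), and the deviations of the 24 samples were correlated for 6 relations (permutation within group and set, 100000 resamples, adjusted over the 6). Lama4 followed Lamc1 most closely (Pearson r = 0.893, permutation p = 6e-05, adjusted p = 0.00036; Spearman rho = 0.862, permutation p = 8e-05, adjusted p = 0.00048). Lamb1 had r = 0.852 (permutation p = 0.00106, adjusted p = 0.00212) and rho = 0.760 (permutation p = 0.00081, adjusted p = 0.00162). Nid1 had r = 0.840 (permutation p = 0.00043, adjusted p = 0.00129) and rho = 0.830 (permutation p = 0.00038, adjusted p = 0.00114). With the 2 samples most distant from the Lamc1 median left out, r was 0.814 for Lama4, 0.707 for Lamb1 and 0.791 for Nid1. Outside the 6 relations, r with Lamc1 was 0.830 for agrin, 0.809 for Nid2 and 0.800 for perlecan, which was not tested. A high r with Lamc1 was thus not limited to the 6 partners.

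The relations of the other chains with Lamc1 did not pass the test. For Lama2, r was 0.459 (permutation p = 0.0771, adjusted p = 0.116), rho was 0.460 (permutation p = 0.0729, adjusted p = 0.109), and r was 0.413 without the 2 samples. For Lamb2, r was 0.0887 (permutation p = 0.711, adjusted p = 0.711), rho was 0.15 (permutation p = 0.57, adjusted p = 0.57), and r was 0.101 without the 2 samples. For Lama5, r was -0.378 (permutation p = 0.319, adjusted p = 0.383), rho was -0.184 (permutation p = 0.497, adjusted p = 0.57), and r was 0.0385 without the 2 samples, so the negative value rested on them. Leaving out samples 4 to 6 gave an r of 0.913 for Lama4, 0.844 for Lamb1 and 0.905 for Nid1. All genes of a sample share its library and its normalization.

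**Figure D5:**
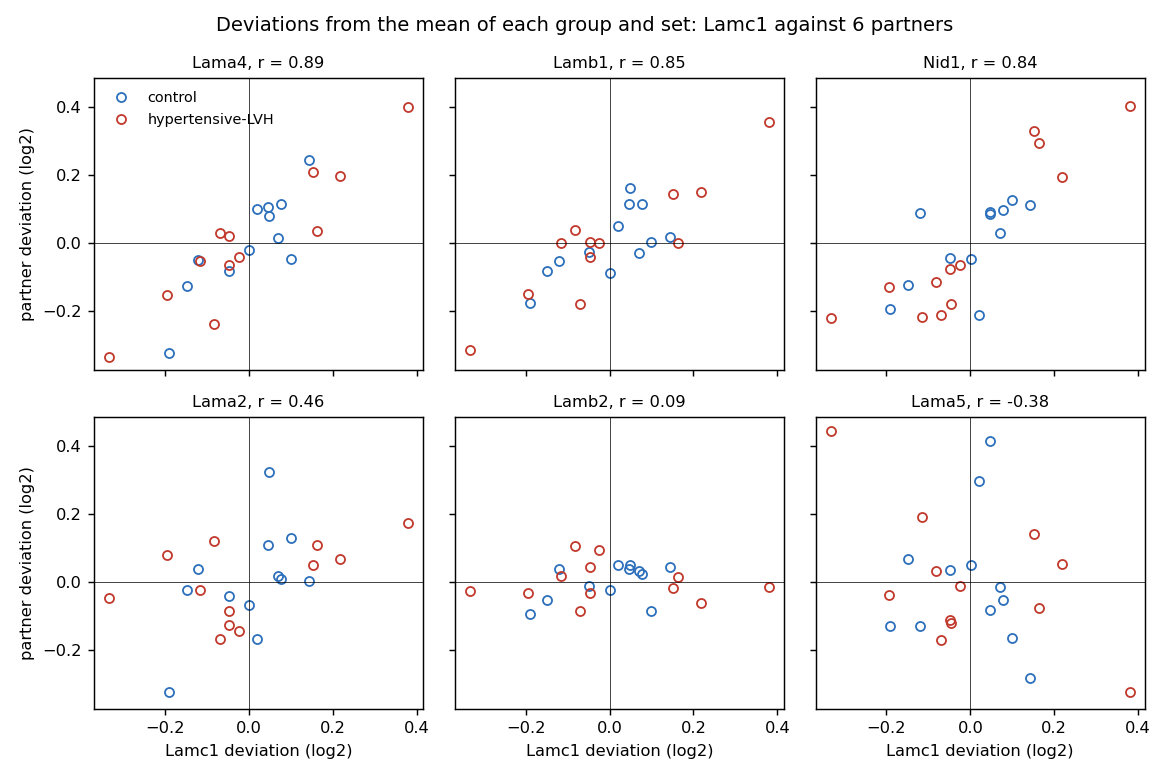
Deviations from the mean of each group and set on the log2 scale, Lamc1 on the horizontal axis and 1 partner on the vertical axis of each panel, for 12 control (blue) and 12 hypertensive-LVH samples (red). The points of Lama4, Lamb1 and Nid1 rise along the diagonal (r = 0.893, 0.852 and 0.840), whereas Lamb2 stays close to 0 across the range of Lamc1 (r = 0.0887).

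Over all 45 pairs of the 10 genes, these deviations had a median r of 0.521, and 37 pairs were positive. The lowest r was -0.439 (Lama5 with Nid2). Lama5 had a mean r of -0.2 with the other 9 genes and Lamb2 of 0.120, whereas Lamb1 had the highest mean r (0.597). The genes outside the 10 with the highest mean r with them were Srgap2 (0.614), Nav3 (0.587), Proser3 (0.583), Gxylt2 (0.579) and Psrc1 (0.576), over 24 samples. Of these, Psrc1 was higher in the hypertensive-LVH group (log2 fold change 0.63, adjusted p = 0.000572, limma) and the other 4 did not pass the threshold. These correlations are descriptions of the same 24 samples and were not tested.

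The partners of these genes in the basement membrane were counted from fixed lists. Over all 14026 genes tested, 20.9% were called higher and 1769 genes lower. Without samples 4 to 6, 8.4% of all genes were called higher, and the share called lower in that comparison is not given here. Of 8 collagen genes of the basement membrane, 5 were higher and 0 lower, with a median log2 fold change of 0.43. Col4a1 and Col4a2, whose chains form the main collagen IV, were at 231 ± 33.9 and 150 ± 23.4 FPKM (SD, n = 12) in the control group and at 321 ± 63.3 and 215 ± 42.0 FPKM in the hypertensive-LVH group. Their log2 fold changes were 0.47 (adjusted p = 0.000845) and 0.51 (adjusted p = 0.000391), and without samples 4 to 6 they were 0.31 (adjusted p = 0.0138) and 0.35 (adjusted p = 0.00649). Col18a1, the source of endostatin, had the largest log2 fold change of the list (1.49, adjusted p = 0.00994, 2 of 24 values negative and set to 0), followed by Col15a1 (0.72, adjusted p = 0.0117). Neither passed without samples 4 to 6 (adjusted p = 0.119 and 0.211). The count of the list fell to 2 genes without these samples.

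Of 17 other genes whose products bind or modify the basement membrane, 3 were higher and 1 lower (median log2 fold change 0.115). Sparc, a collagen-binding matrix protein, rose from 326 ± 105 to 692 ± 217 FPKM (SD, n = 12), a log2 fold change of 1.10 (adjusted p = 0.00016), and was 0.70 higher without samples 4 to 6 (adjusted p = 0.00438). Egflam, which encodes the dystroglycan ligand pikachurin, fell by 0.55 on the log2 scale (adjusted p = 1.5e-05), from 5.12 ± 0.867 to 3.18 ± 0.514 FPKM. The counts of this list were 2 higher and 1 lower without samples 4 to 6.

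Among the receptors of laminins, perlecan and agrin, 2 of 14 tested genes were higher and 0 lower (median log2 fold change 0.095). Itgb1, the beta subunit of the laminin-binding integrins of the heart, was at 138 ± 9.29 FPKM (SD, n = 12) in the control group and 168 ± 21.5 FPKM in the hypertensive-LVH group (log2 fold change 0.28, adjusted p = 0.000803, and 0.25 with adjusted p = 0.0141 without samples 4 to 6). The syndecan Sdc1 had a log2 fold change of 0.69 (adjusted p = 0.0136), which was 0.22 (adjusted p = 0.283) without samples 4 to 6, so that 1 gene of the list was then called higher. Dystroglycan (Dag1) had a log2 fold change of 0.09 (adjusted p = 0.0683), and the muscle integrin subunit Itga7 of -0.10 (adjusted p = 0.239).

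Of 11 tested enzymes that build the glycan by which dystroglycan binds laminin, 4 were lower and 1 was higher (median log2 fold change -0.001). Without samples 4 to 6 the counts were 5 lower and 1 higher. With all samples, 1769 of the 14026 genes tested were lower and 20.9% were higher. Without samples 4 to 6, 8.4% of all genes were called higher, and the share called lower is not given here. Pomgnt2, a glycosyltransferase of this pathway, fell by 0.28 on the log2 scale (adjusted p = 0.000696), whereas Pomgnt1 rose by 0.15 (adjusted p = 0.0168). Among 19 enzymes that build or trim heparan sulfate, 4 were higher and 1 lower (median log2 fold change 0.061). The called genes included the 6-O-endosulfatases Sulf1 (0.53, adjusted p = 0.0119) and Sulf2 (0.47, adjusted p = 0.00697), and the lower gene was Extl1 (-0.33, adjusted p = 8.58e-05). The counts of that list were 0 higher and 3 lower without samples 4 to 6. Of 13 enzymes that cut basement membrane proteins, 10 were higher and 0 lower (median log2 fold change 0.458), led by cathepsin S (Ctss, 1.33, adjusted p = 0.000613) and stromelysin 1 (Mmp3, 1.19, adjusted p = 0.00868, 1 value negative and set to 0). The count was 4 without samples 4 to 6, with Ctss at 0.99 (adjusted p = 0.0172) and Mmp3, no longer past the threshold, at 0.51 (adjusted p = 0.138).

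Markers of cell types moved with the group as well, and their part in the differences of the 10 genes was not tested. Their counts stand beside 20.9% of all genes called higher and 1769 of 14026 called lower. All 7 macrophage markers were higher, with summed levels between 183.0 and 410.8 FPKM in the control group and between 223.5 and 709.5 FPKM in the hypertensive-LVH group, led by Cd68 (log2 fold change 0.92) and Lyz2 (0.75). All 7 markers of activated fibroblasts were higher, with sums between 70.9 and 636.6 FPKM and between 409.2 and 1823 FPKM in these groups, led by Col1a1 (2.77) and Col3a1 (2.63). Each of these 2 genes had 3 negative values that were set to 0, and without samples 4 to 6 their log2 fold changes were 0.77 and 0.39. Of 8 fibroblast markers 4 were higher and 1 was lower (sums between 702.2 and 1237 FPKM and between 872.4 and 1830 FPKM). The median sum was 1142 FPKM in the control group and lower, at 1016 FPKM, in the hypertensive-LVH group. Mfap5 (1.76) and Lum (1.15) led the list and Gsn (-0.49) was lower, while the defining markers Pdgfra (0.20) and Tcf21 (0.20) did not pass the threshold.

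Cardiomyocyte markers were lower in 4 of 8 cases and higher in 1, with sums between 41500 and 51970 FPKM in the control group and between 31660 and 45190 FPKM in the hypertensive-LVH group. Tnni3 fell by 0.63 and Myl2 by 0.50 on the log2 scale, Mybpc3 rose by 0.21, and Myh6 had a log2 fold change of -0.23 (adjusted p = 0.0648). Both groups thus had the high level of these genes that defines ventricular muscle. Of 10 endothelial markers 2 were higher and 1 lower (sums between 456.4 and 563.0 FPKM and between 452.6 and 673.6 FPKM). Pecam1 rose by 0.37 (adjusted p = 0.000777), Kdr fell by 0.23 (adjusted p = 0.0309) and Cdh5 had a log2 fold change of 0.0019 (adjusted p = 0.987).

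Of 9 mural markers 2 were higher and 2 lower, with Tagln at 1.32 (1 value negative and set to 0) and Kcnj8 at -0.58 (sums between 282.8 and 478.5 FPKM and between 350.1 and 524.4 FPKM). Of 5 Schwann cell markers 1 was higher (Scn7a, 0.29), with sums between 4.88 and 10.0 FPKM and between 7.14 and 14.8 FPKM. No mesothelial marker passed the threshold (0 of 4, sums between 5.08 and 47.1 FPKM and between 4.15 and 25.2 FPKM). Atrial markers varied widely in both groups (0 of 4 past the threshold, sums between 1.18 and 3156 FPKM and between 1.27 and 2306 FPKM), and Sln and Myl7 each had 7 negative values set to 0.

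Fewer markers were called when samples 4 to 6 were left out, where 8.4% of all genes were called higher. The share of all genes called lower in that comparison is not given here. The counts were then 0 of 7 macrophage markers, with Cd68 at 0.76 (adjusted p = 0.0539) and Lyz2 at 0.50 (adjusted p = 0.101), and 2 of 7 activated fibroblast markers higher. Of the fibroblast markers 1 was higher (Mfap5, 0.87, adjusted p = 0.000761) and 1 lower, while Lum was at 0.26 (adjusted p = 0.211). Cardiomyocyte markers were higher in 1 case and lower in 3, and endothelial markers were higher in 2 cases, Pecam1 among them (0.25, adjusted p = 0.0297), and lower in 1. No mural marker was called higher and 2 were lower, with Tagln at 0.29 (adjusted p = 0.537), and no Schwann cell marker was called, with Scn7a at 0.14 (adjusted p = 0.361). Atrial markers gave 0 calls, and of the mesothelial markers 1, Wt1, named after its value was seen, was higher (0.30, adjusted p = 0.0335).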

How the data were processed

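RNA-seq of the left ventricle was analysed in 24 samples, 12 per group, while the paper used 16 per group and the remaining 4 of each group were not analysed here. The authors deposited 1 table of FPKM values per gene symbol. The submitters' processing notes name HISAT, Bowtie2 and RSEM, and their versions, the genome build and the annotation are not given in the sources used here. The deposited FPKM values are not plain, as 2741 of them (0.766%) are negative. Ties between samples (215 to 541 genes per pair within a set, 0 between sets) were read as a shift and scaling of the values gene by gene in 4 sets, a step not named in the methods, and 278 genes still held whole hundredths throughout. Scaling raises or lowers the spread of a set and can change a p-value. The depth in reads is unknown, so no counting error could be given.

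Differences before the adjustment were recovered for 13776 genes (92.4%) on the assumption of steps of 0.01 FPKM and of a group difference kept apart from the scaling. Negative values were set to 0, log2(FPKM + 1) was taken, and genes with a mean of at least 0.1 FPKM (14026) were fitted with limma 3.58.1 (R 4.3.3) with an intensity trend. Fold changes on this scale understate the change of low genes. The procedure was tested on data with known answers. Other tests used Python 3.11.15, numpy 2.4.6 and scipy 1.17.1. Tests were two-sided, and adjusted p-values are Benjamini-Hochberg values. Where a p-value in a list of genes has no tool named, it is from limma over all genes.

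The 10 genes and all lists were chosen with earlier results of these data known. Genes named are the 10 genes, the 2 with the largest absolute log2 fold change among those past the threshold in each list, up to 2 past it in the opposite direction to most of their list, Col4a1, Col4a2, Dag1, Itgb1, Itga7, Sparc, defining markers, and the 5 genes most like the 10. Some results that this rule would name, and the list of laminin chains outside the 10 genes, are not reported here. Alternatives were no filter or a minimum mean of 1 FPKM, a smaller pseudocount (0.1), median-ratio scaling, quantile normalization, no trend, a Wilcoxon rank-sum test, a replicate block, the set as a term, and leaving out each set or sample.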

Additional observations from a re-analysis of the deposited data

Results flagged for a closer look

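The difference between the groups varied between the 4 sets of samples for Nid2 (adjusted p = 0.0239) and Agrn (adjusted p = 0.0455), tested as a group by set interaction over all genes (limma). For Nid2 the log2 fold changes were -0.04, 1.47, 0.31 and 0.48 in samples 1 to 3, 4 to 6, 7 to 9 and 10 to 12, and for Agrn they were 0.09, 0.84, 0.03 and 0.07. In samples 4 to 6, Nid2 was at 4.62 ± 0.944 FPKM (SD, n = 3) in the control group and 14.7 ± 3.56 FPKM in the hypertensive-LVH group. Agrn was at 9.81 ± 0.775 and 18.4 ± 2.56 FPKM in the same samples. Without samples 4 to 6 the interaction passed the threshold in 0 of the 10 genes.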

How the results depend on the processing

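Of the 10 genes, 6 were called with a pseudocount of 0.1, with no filter, with a mean of at least 1 FPKM and with no trend. With median-ratio scaling 5 were called, without perlecan. Quantile normalization and the set as a term each gave 4 (Lamb1, Lamc1, Nid1 and Nid2). The Wilcoxon rank-sum test gave 4 with perlecan in place of Lamc1 (adjusted p = 0.111, Wilcoxon). Agrin did not pass it (adjusted p = 0.217, Wilcoxon). With quantile normalization 0 genes were DEGs, and with the deposited values 3 genes passed the exact test. Leaving out samples 4 to 6 left 1 gene called and 0 DEGs, 1 gene past the exact test, and 0 past the interaction test, whereas the contrast of samples 4 to 6 with the other sets gave 6. Leaving out samples 1 to 3, 7 to 9 or 10 to 12 gave 5, 7 and 5 called genes and 2 DEGs each. Leaving out single samples gave 4 to 7 called genes and 0 to 2 DEGs; the DEG count was 0 without hypertensive-LVH sample 4 or control sample 4. Same-numbered samples of the groups had correlations from -0.557 to -0.00109. The adjustment was made in sets that hold same-numbered samples of both groups, so these values cannot show whether the samples were paired. A replicate block gave 3 called genes (Lamb1, Nid1 and Nid2). The fold change of Lamb2 was -0.04 with median-ratio scaling, -0.0093 without samples 1 to 3, -0.0014 without samples 4 to 6, -0.0061 as a difference of medians, and from -0.0028 to 0.0181 without single samples. Without samples 4 to 6 the ratio of Lamb1 to Lamb2 differed by 0.1791 (adjusted p = 0.0656, permutation), Lama4 to Lama2 by -0.0098, Lama5 to Lama4 by 0.1389 (0.0054 with quantile normalization), Nid2 to Nid1 by -0.0395 and Hspg2 to Agrn by 0.0511, none of the last 4 past the threshold. With only the group mean removed, r of Lamc1 with Lama2 was 0.544 and passed it (permutation adjusted p = 0.0088). The cause was not tested. The unknown depth limits what can be said of genes with low levels.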
